A study of Homo sapiens with 18 samples.

Results

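The 54 genes described here act in G2 phase and mitosis, and were chosen by name from known functions. The list was made with earlier results of these data known. Each row of the expression table whose gene symbol was on the list was taken. All 54 were found among the 60623 genes of the table, and all 54 passed the filter on low values that left 16169 genes for testing. The RNA came from 16D, a human prostate cancer cell line that is castration-resistant and was derived from LNCaP xenografts, kept in RPMI with 10% FBS. The control group received the solvent DMSO, and the 5 treated groups received 10 µM enzalutamide, an androgen receptor antagonist, for 24, 48, 96 or 144 h, or longer than 2 months (called long-term). Each of the 6 groups has 3 libraries, 18 in all. All cells come from 1 line. The labels do not say whether the 3 libraries of a group came from separate cultures, so p-values measure only the spread between these libraries. There is 1 DMSO group for all durations, so drug exposure and time in culture cannot be told apart, and every comparison with DMSO uses the same 3 control libraries.

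Cells that have copied their DNA prepare for division in G2 by building up cyclin A and cyclin B, which bind and switch on cyclin-dependent kinase 1 (CDK1). The active kinase drives chromosome condensation, nuclear envelope breakdown and spindle assembly, until the anaphase-promoting complex destroys the cyclins and the sister chromatids part. The genes for these proteins are transcribed together late in the cell cycle, by B-MYB (encoded by MYBL2) and FOXM1 acting with the MuvB complex, and they are repressed in resting cells by the DREAM complex. MuvB is known to contact a short DNA element, the cell cycle genes homology region, which often lies next to CCAAT boxes bound by the factor NF-Y. In prostate cancer these genes are widely read as a measure of proliferation.

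The promoters of 4 genes that carry both elements (CCNB2, CDK1, HMMR and TOP2A) and of 2 that show neither in this window (MYBL2 and LBR) are given because these genes span the range of responses described below. Each window runs from 250 bases before to 50 bases after a RefSeq start in build GRCh38.p14, 5′ to 3′ on the gene's strand. Capitals mark CCAAT boxes (CCAAT, or ATTGG where it lies on the other strand) and homology regions (TTTGAA or TTCGAA, or TTCAAA where TTTGAA lies on the other strand).
CCNB2 chr15:59104896-59105195 (plus strand): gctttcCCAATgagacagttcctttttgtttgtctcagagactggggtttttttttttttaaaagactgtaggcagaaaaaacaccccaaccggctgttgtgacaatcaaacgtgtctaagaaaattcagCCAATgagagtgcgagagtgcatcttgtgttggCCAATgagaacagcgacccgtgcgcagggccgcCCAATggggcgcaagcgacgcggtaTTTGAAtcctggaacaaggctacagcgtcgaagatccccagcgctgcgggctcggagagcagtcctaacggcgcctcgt
CDK1 chr10:60778228-60778527 (plus strand): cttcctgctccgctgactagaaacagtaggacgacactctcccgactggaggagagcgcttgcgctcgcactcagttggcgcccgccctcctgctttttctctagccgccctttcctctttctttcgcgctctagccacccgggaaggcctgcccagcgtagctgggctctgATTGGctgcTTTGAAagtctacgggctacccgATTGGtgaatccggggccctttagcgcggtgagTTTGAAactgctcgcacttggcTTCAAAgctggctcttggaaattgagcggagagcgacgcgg
HMMR chr5:163460382-163460681 (plus strand): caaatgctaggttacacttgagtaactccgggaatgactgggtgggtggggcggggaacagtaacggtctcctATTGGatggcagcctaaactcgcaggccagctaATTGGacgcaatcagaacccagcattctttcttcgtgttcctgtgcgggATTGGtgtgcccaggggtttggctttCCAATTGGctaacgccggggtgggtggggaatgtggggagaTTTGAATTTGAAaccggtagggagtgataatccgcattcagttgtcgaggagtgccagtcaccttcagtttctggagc
TOP2A chr17:40417847-40418146 (minus strand): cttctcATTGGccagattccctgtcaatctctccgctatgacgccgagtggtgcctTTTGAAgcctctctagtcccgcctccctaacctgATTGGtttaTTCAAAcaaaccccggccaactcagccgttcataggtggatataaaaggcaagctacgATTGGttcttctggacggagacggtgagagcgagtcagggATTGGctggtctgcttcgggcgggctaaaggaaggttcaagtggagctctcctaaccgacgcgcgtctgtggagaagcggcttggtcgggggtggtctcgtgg
MYBL2 chr20:43666864-43667163 (plus strand): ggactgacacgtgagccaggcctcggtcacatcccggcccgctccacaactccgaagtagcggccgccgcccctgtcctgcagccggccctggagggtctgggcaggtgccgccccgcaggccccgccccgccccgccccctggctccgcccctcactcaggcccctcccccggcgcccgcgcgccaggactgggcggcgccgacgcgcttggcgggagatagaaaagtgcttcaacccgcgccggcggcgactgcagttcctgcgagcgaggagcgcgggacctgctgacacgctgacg
LBR chr1:225428772-225429071 (minus strand): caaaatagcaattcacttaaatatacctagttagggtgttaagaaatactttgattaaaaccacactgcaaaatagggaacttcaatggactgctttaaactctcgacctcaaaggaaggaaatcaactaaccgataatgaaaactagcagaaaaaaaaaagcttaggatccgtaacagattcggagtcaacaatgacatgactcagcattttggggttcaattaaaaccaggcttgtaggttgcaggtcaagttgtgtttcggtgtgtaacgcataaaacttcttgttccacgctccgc
In CCNB2, the letters TTTGAA begin 29 bases before the start and follow 4 CCAAT boxes. In HMMR, 2 homology regions stand side by side, the nearer 22 bases before the start, and 2 of its 5 CCAAT boxes overlap on opposite strands. RefSeq lists 2 starts for CDK1, and the window with more matches is shown.

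The table of promoters held 47 of the 54 genes, with 59 promoters between them. A CCAAT box on either strand was present in 39 of 59 promoters (66.1%), against 34.6% of all 35116 promoters in the table. A homology region was present in 38 of 59 (64.4%), against 16.4% of all promoters. Both elements stood together in 30 of 59 (50.8%), against 6.38% of all promoters. Shares among promoters of the tested genes were 34.8% for the CCAAT box, 11.3% for the homology region and 4.54% for both. A match to such short letters is a description of the sequence and not a binding site.

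Expression is given in TPM, a relative abundance corrected for transcript length that sums to the same total in every library. Read depth cannot be recovered from it, so values carry no counting interval. Levels are group means ± SD in TPM. Changes are differences in mean log2(TPM + 1), called log2 fold changes, ± standard error, a scale that understates the change of low genes; n = 3 libraries per group throughout. A gene is called higher or lower at an adjusted p under 0.05 in limma's moderated test, fitted over all 18 libraries and adjusted by Benjamini and Hochberg over the 16169 tested genes. All 10 prostate luminal markers checked were expressed. None of 9 leukocyte markers passed the filter (highest value 0.83 TPM), and of 9 fibroblast markers only COL1A1 passed, the others reaching at most 0.70 TPM. KLK3, a gene induced by the androgen receptor, ranged from 989 to 1038 TPM in DMSO and from 32.3 to 36.2 TPM at 144 h. In long-term cells KLK3 ranged from 131 to 156 TPM, above 144 h and below DMSO. Mitochondrially encoded genes took 15.1% to 29.5% of TPM per library, and their mean share was 26.4% ± 3.91 in the long-term group and 19.4% ± 1.49 in DMSO. A larger mitochondrial share lowers the TPM of all other genes, and this is given beside the results it moves with.

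The G2 and mitosis genes were close to the control level at 24 h, partly lower at 48 and 96 h, and mostly lower at 144 h and long-term. None of the 54 was called lower at 24 h, where 3.58% of all tested genes were, and none was called higher, where 4.59% were. At an unadjusted p under 0.05, 3 of the 54 and 3270 of all genes passed at 24 h. At 48 h, 9 of 54 were called lower (16.7%; 8.08% of all genes) and none higher (9.38% of all genes were higher). At 96 h, 13 were called lower (24.1%; 12.7% of all genes) and 2 higher (16.5% of all genes were higher); the lower count was 6 without DMSO replicate 1, 5 without DMSO replicate 2 and 5 without 96 h replicate 3. At 48 h, 18 were called lower with median-of-ratios scaling, for which the share of all genes is not given here. At 144 h, 45 were called lower (83.3%; 16.4% of all genes) and none higher (26.6% of all genes were higher). In long-term cells 50 were called lower (92.6%; 33.9% of all genes) and none higher (18.1% of all genes were higher). Separately, genes were counted whose treated libraries all lay below all DMSO libraries. At 24, 48, 96 and 144 h and long-term these were 5, 24, 14, 46 and 49 of the 54 genes. The shares of all tested genes were 12.1%, 19.6%, 18.2%, 19.6% and 36.6%. Wholly above DMSO lay 8 of the 54 genes at 24 h (15.2% of all genes) and 5 at 96 h (22.9% of all genes). In bulk RNA, fewer cycling cells and less RNA of these genes per cell cannot be told apart.

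The size of the change was moderate. The median log2 fold change of the 54 genes was 0.00 at 24 h, -0.13 at 48 h, -0.06 at 96 h, -0.39 at 144 h and -0.58 in long-term cells. The median of all tested genes was within 0.1 of 0 at each time point but was -0.12 in long-term cells, so that the 54 genes lay 0.46 below it both at 144 h and long-term. The summed level of the 54 genes was 4525 ± 203 TPM in DMSO and 4512 ± 133 at 24 h. It was 4048 ± 56.3 TPM at 48 h and 4269 ± 312 at 96 h. It was 3399 ± 171 TPM at 144 h and 3186 ± 223 in long-term cells, which are 24.9% and 29.6% below DMSO. The libraries at 48 h, at 144 h and long-term all lay below every DMSO library in this sum, while those at 24 h and 96 h overlapped with DMSO.

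**Figure D1:**
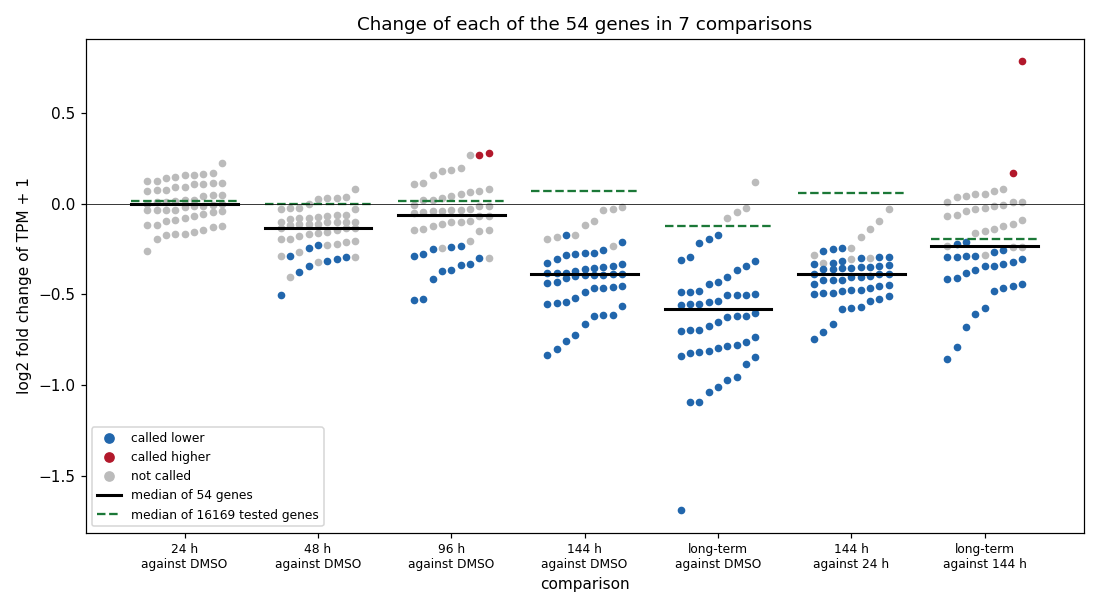
Log2 fold change of TPM + 1 (y axis) for each of the 54 genes in 7 comparisons (x axis); blue and red points were called lower and higher, grey points were not called. Black bars are the medians of the 54 genes (-0.39 at 144 h and -0.58 long-term against DMSO) and green dashed bars those of all 16169 tested genes. The cloud drops below 0 at 144 h, and CDK1 stands alone at the top of the comparison of long-term with 144 h.

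The order in which genes were called lower differed among them. Called by 48 h were 9 genes: AURKB, BUB3, MAD2L1, TTK, UBE2C, HMMR, NCAPG, NCAPH and MYBL2, of which all but UBE2C were also lower at 96 h. Another 5 were called lower from 96 h (CDK1, CKS1B, ANLN, LBR and LMNB1), and 31 more at 144 h. All 13 genes lower at 96 h were lower at 144 h, and 44 genes were lower both at 144 h and long-term. Called lower in long-term cells and at no time point before were 6 genes: NEK2, BUB1, CENPA, CENPF, KIF23 and ECT2. CENPE, KIF20B and TOP2A were called lower in no comparison with DMSO. The time of a first call depends on the threshold and is not a test that genes differ in timing.

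**Figure D2:**
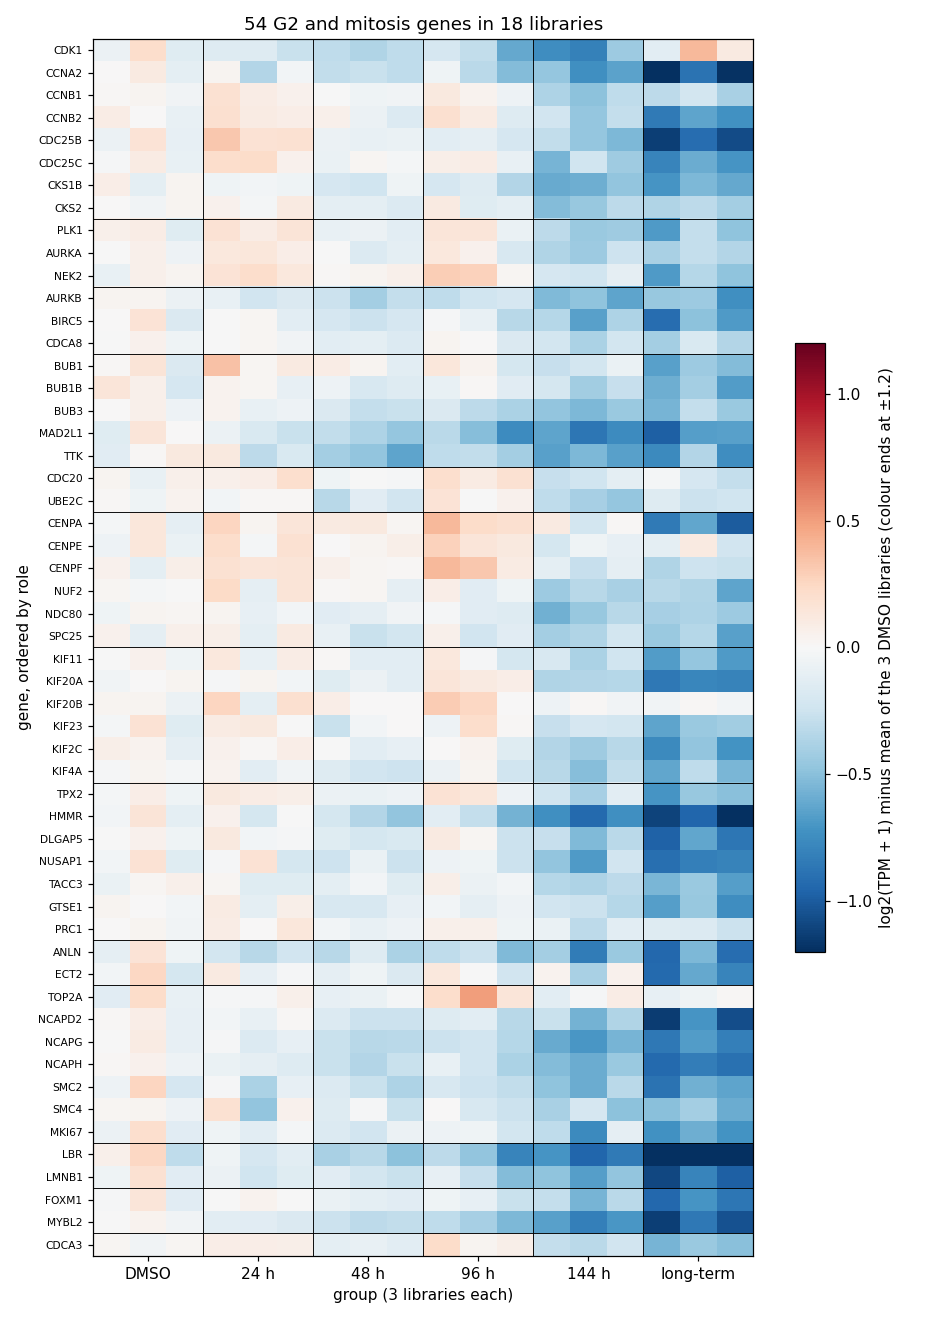
Difference of log2(TPM + 1) from the mean of the 3 DMSO libraries for each of the 54 genes (rows, grouped by role with lines between roles) in each of the 18 libraries (columns, 3 per group). Blue is lower and red higher, with colours ending at ±1.2. Blue covers most rows at 144 h and long-term, LBR is the darkest row, and the CDK1 row turns back to light colours in the long-term libraries.

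Of CDK1 and its regulators, all 8 genes were lower at 144 h (16.4% of all genes) and 7 long-term (33.9% of all genes), the exception being CDK1 itself. CDK1 (ENSG00000170312, chr10:60778331-60794852, GRCh38) had the highest mean of the 54 genes in DMSO. Its TPM in the 3 libraries was 285, 345 and 270 in DMSO, 268, 268 and 248 at 24 h, and 242, 232 and 241 at 48 h. It was 260, 243 and 195 at 96 h, 178, 170 and 220 at 144 h, and 274, 391 and 321 in long-term cells. All libraries at 144 h lay below all DMSO libraries, while the long-term libraries overlapped with DMSO and lay above every library at 144 h. CDK1 was not called at 48 h (-0.32 ± 0.13, adjusted p = 0.107). It was lower at 96 h (-0.37 ± 0.13, adjusted p = 0.0452), a call lost without any of 12 single libraries (without 96 h replicate 3, -0.25 and adjusted p = 0.203; without DMSO replicate 2, -0.26 and adjusted p = 0.195). The call was also lost with no filter (adjusted p = 0.114), with only the libraries of both groups (adjusted p = 0.087) and with no variance trend (adjusted p = 0.061). CDK1 fell at 144 h (-0.66 ± 0.13, adjusted p = 0.000645). In long-term cells it did not pass against DMSO (0.12 ± 0.13, adjusted p = 0.464) and was higher than at 144 h (0.79 ± 0.13, adjusted p = 0.000144). Against DMSO the same value was called higher under each of 4 other scalings or adjustments, from 0.25 (adjusted p = 0.0485) without mitochondrial genes to 0.52 with the share of mitochondrial TPM as covariate.

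Cyclin levels in long-term cells were below DMSO. CCNA2, encoding cyclin A2, was at 32.1, 34.6 and 29.5 TPM in DMSO, at 23.0, 18.9 and 20.2 TPM at 144 h, and at 13.4, 16.8 and 13.5 TPM in long-term cells. These 3 groups did not overlap. CCNB1, encoding cyclin B1, was at 245, 249 and 237 TPM in DMSO, at 277, 258 and 253 TPM at 24 h, and at 188, 173 and 197 TPM at 144 h. Its long-term values were 196, 208 and 186 TPM, which overlap with 144 h and lie below DMSO. CCNB1 was not called at 24 h (0.11 ± 0.06, adjusted p = 0.351), 48 h (-0.03 ± 0.06, adjusted p = 0.799) or 96 h (0.03 ± 0.06, adjusted p = 0.733). It was lower at 144 h (-0.39 ± 0.06, adjusted p = 7.92e-05) and long-term (-0.31 ± 0.06, adjusted p = 0.00049); with quantile normalization the long-term value was -0.08 and missed the threshold (adjusted p = 0.063). CCNB1 did not pass between long-term and 144 h (0.08 ± 0.06, adjusted p = 0.291). CCNB2, encoding cyclin B2, had a mean of 94.4 ± 6.0 TPM in DMSO, 75.2 ± 6.4 TPM at 144 h and 56.3 ± 4.3 TPM long-term.

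CDC25B and CDC25C encode phosphatases that activate CDK1, and were called lower at 144 h and long-term. The long-term change of CDC25B was among the larger ones. CDC25B was at 67.8, 79.7 and 66.4 TPM in DMSO and at 89.1, 80.3 and 80.9 TPM at 24 h. It was at 57.7, 51.1 and 48.6 TPM at 144 h and at 31.9, 37.2 and 33.3 TPM long-term, with no overlap between these groups. The long-term difference from DMSO was -1.04 ± 0.08 (adjusted p = 1.73e-08), and that from 144 h was -0.61 ± 0.08 (adjusted p = 1.47e-05). CDC25C, which acts on the same kinase at mitotic entry, had a mean of 17.3 ± 1.1 TPM in DMSO and 10.3 ± 0.8 TPM long-term. CKS1B and CKS2 encode small proteins that bind cyclin-dependent kinases. CKS1B was at 39.9, 34.7 and 38.6 TPM in DMSO and at 24.4, 24.8 and 26.9 TPM at 144 h (-0.55 ± 0.07, adjusted p = 1.77e-05). Its 96 h call was lost without DMSO replicate 1 (adjusted p = 0.103), DMSO replicate 3 (adjusted p = 0.074) or 96 h replicate 3 (adjusted p = 0.106). It was also lost with only the libraries of both groups (adjusted p = 0.085).

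**Figure D3:**
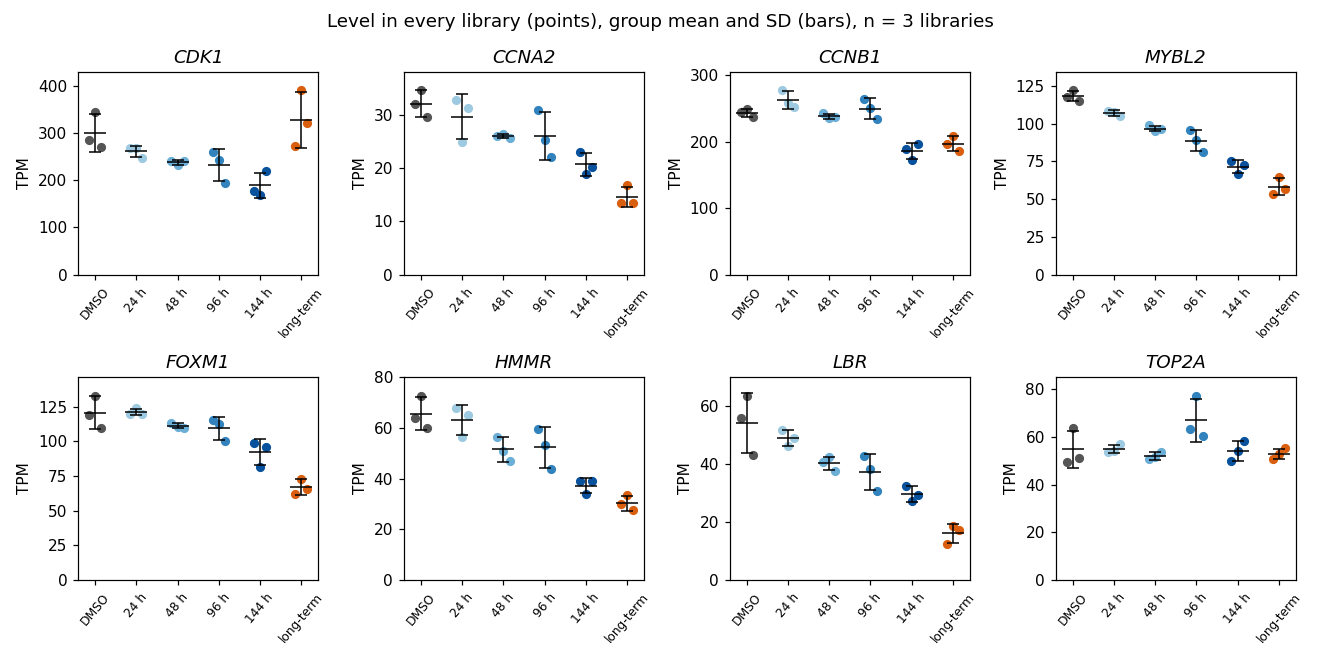
TPM (y axis, from 0) of 8 genes in every library (points), with the group mean and SD (bars, n = 3), for DMSO, enzalutamide for 24, 48, 96 and 144 h, and long-term treatment. MYBL2 and LBR are lower in each later group, the 144 h and long-term libraries of CCNB1 lie below DMSO, CDK1 overlaps with DMSO long-term, and TOP2A is highest at 96 h.

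Among the mitotic kinases, PLK1 and AURKA were lower at 144 h and long-term. PLK1, which acts in spindle formation and mitotic entry, was at 145, 148 and 125 TPM in DMSO, at 112, 102 and 104 TPM at 144 h and at 86.5, 114 and 99.2 TPM long-term. Both later groups lay below DMSO and overlapped with each other. PLK1 was not called at 24 h (0.14 ± 0.09, adjusted p = 0.425), 48 h (-0.10 ± 0.09, adjusted p = 0.513) or 96 h (0.07 ± 0.09, adjusted p = 0.617). It was lower at 144 h (-0.40 ± 0.09, adjusted p = 0.00197) and long-term (-0.49 ± 0.09, adjusted p = 0.00025). AURKA encodes the spindle pole kinase Aurora A, and its libraries were at 39.3 to 43.0 TPM in DMSO, 30.02 to 34.4 TPM at 144 h and 31.2 to 33.5 TPM long-term. It was lower at 144 h (-0.35 ± 0.08, adjusted p = 0.00167) and long-term (-0.34 ± 0.08, adjusted p = 0.00153), though the long-term value was -0.15 and not called with the covariate of mitochondrial share (adjusted p = 0.101). At 24, 48 and 96 h AURKA was at 0.11 ± 0.08 (adjusted p = 0.475), -0.10 ± 0.08 (adjusted p = 0.446) and 0.00 ± 0.08 (adjusted p = 0.977). NEK2, a centrosome kinase, was at 42.8 ± 2.3 TPM in DMSO, 49.4 ± 5.1 TPM at 96 h and 30.03 ± 3.6 TPM long-term.

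The chromosomal passenger complex corrects wrong attachments between chromosomes and the spindle. AURKB, its kinase Aurora B, was lower from 48 h: 104, 104 and 96.4 TPM in DMSO, 84.6, 75.9 and 82.7 TPM at 48 h, 81.6, 85.4 and 87.6 TPM at 96 h, and 69.9, 71.9 and 64.8 TPM at 144 h. Each of these treated groups lay below every DMSO library. AURKB fell at 48 h (-0.32 ± 0.08, adjusted p = 0.00816), at 96 h (-0.25 ± 0.08, adjusted p = 0.0208) and at 144 h (-0.55 ± 0.08, adjusted p = 2.41e-05). The 96 h call was lost without DMSO replicate 1 (adjusted p = 0.070), DMSO replicate 2 (adjusted p = 0.068) or 96 h replicate 1 (adjusted p = 0.069), and with quantile normalization (adjusted p = 0.079). BIRC5, encoding survivin, and CDCA8, encoding borealin, were both called lower at 144 h and long-term and at neither 48 nor 96 h. Their DMSO means were 146 ± 17.3 and 35.9 ± 1.3 TPM, and their long-term means were 89.8 ± 13.2 and 28.7 ± 2.4 TPM.

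The spindle checkpoint holds anaphase until every chromosome is attached, and 3 of its 5 genes were lower at 48 h, 3 at 96 h, 4 at 144 h and 5 long-term. Of all genes, 8.08%, 12.7%, 16.4% and 33.9% were lower in the same order. MAD2L1, encoding the checkpoint protein MAD2, was at 56.3, 69.3 and 62.6 TPM in DMSO, 50.8, 48.2 and 45.0 TPM at 48 h, 49.7, 43.7 and 36.6 TPM at 96 h, and 40.0, 33.7 and 36.5 TPM at 144 h. Its treated libraries from 48 h on all lay below DMSO. MAD2L1 fell at 48 h (-0.38 ± 0.11, adjusted p = 0.0307) and at 96 h (-0.53 ± 0.11, adjusted p = 0.00213). BUB3 fell at 48 h (-0.24 ± 0.07, adjusted p = 0.0265), at 96 h (-0.29 ± 0.07, adjusted p = 0.00541) and at 144 h (-0.49 ± 0.07, adjusted p = 3.73e-05), from a DMSO mean of 183 ± 8.2 TPM to 130 ± 4.4 TPM at 144 h. The 48 h calls of both genes were lost without DMSO replicate 2 or 48 h replicate 2 or 3, as was that of MAD2L1 without DMSO replicate 3 and that of BUB3 without DMSO replicate 1 (adjusted p of at most 0.133 for MAD2L1 and 0.105 for BUB3). With no filter the 48 h adjusted p was 0.074 for MAD2L1 and 0.054 for BUB3. TTK, the kinase MPS1, was at 16.7, 18.6 and 20.1 TPM in DMSO and at 13.6, 12.99 and 11.5 TPM at 48 h (-0.50 ± 0.12, adjusted p = 0.00774). BUB1 and BUB1B were called at neither 48 nor 96 h.

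The genes for CDC20, an activator of the anaphase-promoting complex, and UBE2C, its ubiquitin-conjugating enzyme, were both lower at 144 h. UBE2C had no steady course over time, at 171, 164 and 175 TPM in DMSO, 135, 155 and 145 TPM at 48 h, 191, 169 and 177 TPM at 96 h, 137, 128 and 123 TPM at 144 h, and 152, 142 and 144 TPM long-term. The 48 h and 144 h libraries lay below DMSO, while the 96 h libraries overlapped with it. UBE2C fell at 48 h (-0.23 ± 0.06, adjusted p = 0.0158), a call lost with quantile normalization (adjusted p = 0.125) and without DMSO replicate 1 (adjusted p = 0.054), DMSO replicate 3 (adjusted p = 0.060) or 48 h replicate 1 (adjusted p = 0.092). It was higher long-term than at 144 h (0.17 ± 0.06, adjusted p = 0.0304), a call lost without 144 h replicate 2 or 3 or long-term replicate 1 or 3 (adjusted p of at most 0.118). CDC20 had a mean of 147 ± 8.0 TPM in DMSO, 127 ± 7.3 TPM at 144 h and 131 ± 12.3 TPM long-term.

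Of the 6 genes of the centromere and kinetochore, 3 were lower at 144 h (16.4% of all genes) and 5 long-term (33.9% of all genes). CENPA, the histone variant that marks centromeres, was at 26.6, 29.8 and 25.0 TPM in DMSO, 35.8, 31.7 and 31.1 TPM at 96 h, 29.2, 23.1 and 27.3 TPM at 144 h, and 14.6, 17.2 and 13.01 TPM long-term. Its 96 h libraries lay above DMSO without being called, its 144 h libraries overlapped with DMSO, and its long-term libraries lay below all others. CENPA was lower long-term than at 144 h (-0.79 ± 0.10, adjusted p = 1.5e-05). CENPF, a large kinetochore protein of late cell cycle, was at 117, 104 and 119 TPM in DMSO, 148, 142 and 121 TPM at 96 h, and 87.6, 95.1 and 93.7 TPM long-term. It was higher at 96 h (0.27 ± 0.07, adjusted p = 0.0102), a call lost without DMSO replicate 2 (adjusted p = 0.061) or 96 h replicate 1 (adjusted p = 0.052), and with only the libraries of both groups (adjusted p = 0.078). NUF2, NDC80 and SPC25, subunits of the NDC80 complex that grips microtubules, were all called lower at 144 h and long-term. CENPE, a kinetochore motor, was at 12.6 ± 1.1 TPM in DMSO, 11.5 ± 0.7 TPM at 144 h and 11.9 ± 1.5 TPM long-term, and was not called.

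Of the 6 kinesin motor genes, 4 were lower at 144 h (16.4% of all genes) and 5 long-term (33.9% of all genes). KIF20A, which works at the central spindle in late mitosis, was at 63.2, 65.1 and 66.7 TPM in DMSO, 72.1, 70.1 and 68.8 TPM at 96 h, 50.3, 50.8 and 51.0 TPM at 144 h, and 35.5, 37.4 and 36.8 TPM long-term. None of these 4 groups overlapped with another. It fell at 144 h (-0.35 ± 0.05, adjusted p = 1.45e-05), and the long-term difference from DMSO (-0.81 ± 0.05, adjusted p = 4.16e-10) had the smallest adjusted p of the 54 genes. KIF20B, its relative, was the lowest of the 54 genes, at 9.76 ± 0.44 TPM in DMSO, 9.54 ± 0.29 TPM at 144 h and 9.60 ± 0.24 TPM long-term, and was not called. KIF11, the motor that pushes spindle poles apart, went from 20.4 ± 0.8 TPM in DMSO to 13.1 ± 1.2 TPM long-term.

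All 7 genes of spindle assembly and microtubule binding were lower at 144 h (16.4% of all genes) and long-term (33.9% of all genes). HMMR, a spindle protein and hyaluronan receptor, was at 64.1, 72.8 and 60.1 TPM in DMSO, 56.6, 51.0 and 47.0 TPM at 48 h, 39.0, 33.9 and 38.9 TPM at 144 h, and 29.9, 33.4 and 27.5 TPM long-term. Its 48 h libraries already lay below DMSO. HMMR fell at 144 h (-0.80 ± 0.11, adjusted p = 3.19e-05), a drop of 43.3% in mean TPM. PRC1, which bundles microtubules between the separating chromosomes, had the smallest change of the group, from 116 ± 3.2 TPM in DMSO to 103 ± 8.6 TPM at 144 h and 101 ± 4.1 TPM long-term. TPX2, an activator of Aurora A, went from 83.6 ± 4.1 TPM in DMSO to 70.2 ± 6.6 TPM at 144 h and 56.7 ± 5.4 TPM long-term. Of the cytokinesis genes ANLN and ECT2, ANLN was called lower from 96 h. ANLN, encoding anillin, was at 50.6 ± 5.2 TPM in DMSO against 34.1 ± 5.5 TPM at 144 h, while ECT2 was at 41.5 ± 6.9 and 38.8 ± 6.6 TPM and was called lower only long-term (23.7 ± 2.8 TPM).

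Condensin I compacts chromosomes, and its subunit genes were lower at 144 h and long-term, with NCAPG and NCAPH lower from 48 h. NCAPG was at 37.7, 40.6 and 35.3 TPM in DMSO, 31.3, 29.7 and 30.1 TPM at 48 h, 24.5, 22.9 and 25.3 TPM at 144 h, and 20.4, 23.4 and 21.0 TPM long-term. From 48 h on, every treated library lay below every DMSO library. NCAPG fell at 48 h (-0.31 ± 0.07, adjusted p = 0.00585), 96 h (-0.28 ± 0.07, adjusted p = 0.00724) and 144 h (-0.62 ± 0.07, adjusted p = 2.67e-06). NCAPH fell at 48 h (-0.29 ± 0.07, adjusted p = 0.00768) and long-term (-0.89 ± 0.07, adjusted p = 2.46e-08). Its 96 h call was lost without DMSO replicate 1 (adjusted p = 0.055), DMSO replicate 2 (adjusted p = 0.073) or 96 h replicate 3 (adjusted p = 0.096). It was also lost with only the libraries of both groups (adjusted p = 0.096). NCAPD2 was lower long-term than at 144 h (-0.58 ± 0.10, adjusted p = 0.000225), at 107, 112 and 98.6 TPM in DMSO, 87.9, 70.9 and 82.2 TPM at 144 h, and 47.3, 64.2 and 49.9 TPM long-term. These 3 groups did not overlap for NCAPD2.

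TOP2A and MKI67, both commonly used to mark dividing cells, are given in full; a difference between them was not tested. TOP2A, the topoisomerase that untangles DNA before mitosis, was at 49.5, 63.7 and 51.2 TPM in DMSO, 63.1, 77.3 and 60.2 TPM at 96 h, 49.8, 54.1 and 58.0 TPM at 144 h, and 50.7, 52.7 and 55.1 TPM long-term. Every treated group overlapped with DMSO. TOP2A was higher at 96 h (0.28 ± 0.10, adjusted p = 0.0369), a call lost without DMSO replicate 1 (adjusted p = 0.160), DMSO replicate 3 (adjusted p = 0.125) or 96 h replicate 2 (0.18, adjusted p = 0.196). It was also lost with no filter (adjusted p = 0.080) and with only the libraries of both groups (adjusted p = 0.157). It was at 0.01 ± 0.10 at 24 h (adjusted p = 0.975), -0.07 ± 0.10 at 48 h (adjusted p = 0.701), -0.02 ± 0.10 at 144 h (adjusted p = 0.913) and -0.04 ± 0.10 long-term (adjusted p = 0.731). MKI67, encoding the Ki-67 antigen, was at 32.5, 39.6 and 31.2 TPM in DMSO, 27.6, 19.7 and 31.6 TPM at 144 h, and 20.3, 22.5 and 20.4 TPM long-term. The 144 h libraries overlapped with DMSO and the long-term libraries did not. MKI67 was lower at 144 h (-0.39 ± 0.13, adjusted p = 0.0201), a call lost without 144 h replicate 2 (-0.21, adjusted p = 0.112) or DMSO replicate 2 (-0.29, adjusted p = 0.103) and with only the libraries of both groups (adjusted p = 0.128), and lower long-term (-0.68 ± 0.13, adjusted p = 0.000303). At 24, 48 and 96 h MKI67 was at -0.07 ± 0.13 (adjusted p = 0.846), -0.15 ± 0.13 (adjusted p = 0.469) and -0.11 ± 0.13 (adjusted p = 0.564).

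The nuclear envelope genes had the largest median change of any role, at -0.69 at 144 h and -1.32 long-term. LBR (ENSG00000143815, chr1:225401502-225428925, GRCh38), the lamin B receptor that tethers chromatin to the inner nuclear membrane, was at 55.8, 63.7 and 43.1 TPM in DMSO, 51.7, 46.4 and 49.0 TPM at 24 h, and 40.7, 42.3 and 37.7 TPM at 48 h. It was at 42.9, 38.4 and 30.6 TPM at 96 h, 32.4, 27.2 and 29.4 TPM at 144 h, and 12.5, 18.7 and 17.1 TPM long-term. From 48 h on, every library lay below DMSO, and the long-term libraries lay below those at 144 h. LBR fell at 96 h (-0.52 ± 0.15, adjusted p = 0.0149), a call lost without DMSO replicate 1 (adjusted p = 0.051), DMSO replicate 2 (adjusted p = 0.081) or 96 h replicate 3 (adjusted p = 0.079), and with only the libraries of both groups (adjusted p = 0.064). It fell long-term by 70.3% in mean TPM (-1.69 ± 0.15, adjusted p = 9.74e-08), the largest change of the 54 genes, and was lower than at 144 h (-0.86 ± 0.15, adjusted p = 0.000228). LMNB1, encoding lamin B1, was at 193 ± 22.9 TPM in DMSO, 132 ± 9.5 TPM at 144 h and 99.0 ± 10.4 TPM long-term.

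Of the transcription factors of these genes, MYBL2 was called lower at 48 h, 96 h, 144 h and long-term, and FOXM1 at 144 h and long-term; a difference between the 2 genes was not tested. MYBL2 (ENSG00000101057, chr20:43667019-43716496, GRCh38) was at 118, 122 and 115 TPM in DMSO, 109, 108 and 105 TPM at 24 h, 98.9, 95.2 and 96.3 TPM at 48 h, and 95.5, 89.5 and 81.4 TPM at 96 h. It was at 75.3, 66.8 and 72.5 TPM at 144 h and 53.6, 64.9 and 56.8 TPM long-term. The libraries of every treated group lay below DMSO, also at 24 h, where the change was not called (-0.14 ± 0.07, adjusted p = 0.271). At 24 h, 5 of the 54 genes and 12.1% of all tested genes lay below DMSO in this way. MYBL2 fell at 48 h (-0.29 ± 0.07, adjusted p = 0.0095), 96 h (-0.41 ± 0.07, adjusted p = 0.00033) and 144 h (-0.72 ± 0.07, adjusted p = 5.51e-07), and was lower long-term (-1.01 ± 0.07, adjusted p = 5.45e-09). It was lower long-term than at 144 h (-0.29 ± 0.07, adjusted p = 0.00335), but not with median-of-ratios scaling (-0.05, adjusted p = 0.270) or the covariate of mitochondrial share (-0.09, adjusted p = 0.111). FOXM1 was at 119, 133 and 109 TPM in DMSO, 115, 112 and 99.9 TPM at 96 h, 98.5, 81.3 and 96.1 TPM at 144 h, and 62.0, 73.0 and 65.4 TPM long-term. Its libraries lay below DMSO at 144 h and lower again long-term. FOXM1 was not called at 24 h (0.01 ± 0.08, adjusted p = 0.971), 48 h (-0.11 ± 0.08, adjusted p = 0.424) or 96 h (-0.14 ± 0.08, adjusted p = 0.245). It fell at 144 h (-0.39 ± 0.08, adjusted p = 0.00151) and was lower long-term (-0.84 ± 0.08, adjusted p = 4.26e-07).

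Genes with and without the homology region printed above were both lower at 144 h. Of the 35 genes with it, 28 were called lower at 144 h with a median of -0.38, and of the 12 without it 10 were, with a median of -0.45. Among all tested genes the share called lower was 8.08% at 48 h, 12.7% at 96 h and 16.4% at 144 h. Of the 11 genes with a promoter in the table that were called lower by 96 h, 6 held the homology region, as did 29 of the other 36. MYBL2 and LBR, with neither element in the window, were among the genes with the largest falls, and so was HMMR, with both. TOP2A, with both, and CENPE, with neither, were called lower in no comparison with DMSO. These counts are small and were not tested.

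Between time points, 45 of the 54 genes were lower at 144 h than at 24 h (83.3%; 11.1% of all genes) and none was higher (18.6% of all genes were higher). The difference of means in this comparison uses no DMSO library, but the estimate of spread is shared over all 18 libraries. CDC25B (-0.66 ± 0.08, adjusted p = 1.28e-05) and CCNB1 (-0.50 ± 0.06, adjusted p = 1.48e-05) had the smallest adjusted p. PLK1 was also lower (-0.54 ± 0.09, adjusted p = 0.000289), whereas MKI67 did not pass (-0.33 ± 0.13, adjusted p = 0.0648).

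Long-term cells against 144 h gave a mixed picture that depended on the scaling. There 26 of 54 were called lower (48.1%; 36.8% of all genes) and 2, CDK1 and UBE2C, higher (9.23% of all genes were higher). The median of the 54 genes was -0.23 and that of all genes -0.19, so the 54 genes lay only 0.04 below all genes. All long-term libraries lay below all 144 h libraries for 25 of the 54 genes and 37.1% of all genes. They lay above for 2 of the 54 and 10.7% of all genes. With median-of-ratios scaling, 15 were higher and 12 lower, and with quantile normalization 10 and 13. The shares of all genes called under these scalings are not given here. Over the settings, the median of the 54 genes minus that of all genes ran from -0.22 to 0.05. CDK1 was called higher under all 10 alternative settings, from 0.79 to 1.16. KIF20A (-0.46 ± 0.05, adjusted p = 7.79e-07), CDC25B, CENPA, NCAPD2, LBR, FOXM1, NCAPH and ECT2 were called lower under all 10. PLK1 (-0.09 ± 0.09, adjusted p = 0.434), AURKA (0.01 ± 0.08, adjusted p = 0.936), TOP2A (-0.03 ± 0.10, adjusted p = 0.832) and MKI67 (-0.28 ± 0.13, adjusted p = 0.0796) did not pass in this comparison.

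The 3 long-term libraries and the 3 libraries at 96 h differed among themselves. Within both groups, and also within DMSO and 144 h, libraries with larger mitochondrial shares had lower medians of the 54 genes. Within 24 h and 48 h this order did not hold throughout. The median difference of the 54 genes from the DMSO mean was -0.68, -0.45 and -0.66 in long-term replicates 1, 2 and 3, with mitochondrial shares of 29.5%, 22.0% and 27.7%. Rescaled without mitochondrial genes these medians were -0.50, -0.41 and -0.51, and with median-of-ratios scaling -0.46, -0.43 and -0.47. At 96 h the medians were 0.00, -0.05 and -0.19, with shares of 15.1%, 20.0% and 24.0%. At 144 h they were -0.34, -0.45 and -0.32, with shares of 18.6%, 22.5% and 18.3%. The 144 h group mean of the share, 19.8% ± 2.34, was near that of DMSO. Taken in the same way, the median of all tested genes was -0.19, -0.02 and -0.16 in long-term replicates 1, 2 and 3. At 96 h the median of all tested genes was 0.07, 0.03 and -0.04, so this order was not particular to the 54 genes.

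**Figure D4:**
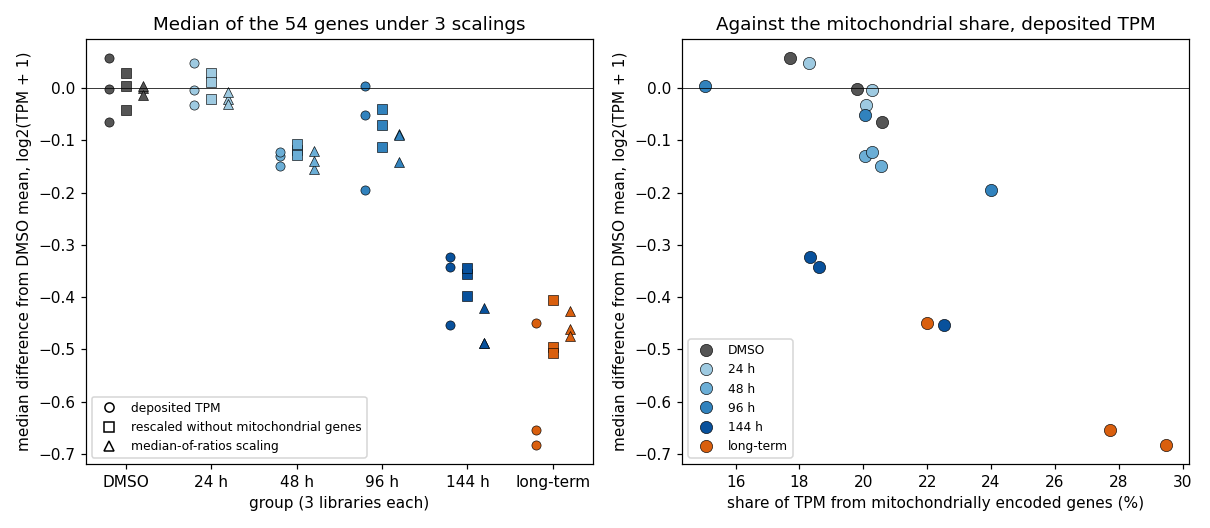
Left, median difference of the 54 genes from the DMSO mean on the log2(TPM + 1) scale in each library under the deposited TPM, TPM rescaled without mitochondrially encoded genes, and median-of-ratios scaling. Right, the median under deposited TPM against the share of TPM from mitochondrially encoded genes in percent, with 1 point per library. The long-term libraries spread from -0.45 to -0.68 as deposited and from -0.43 to -0.47 with median-of-ratios scaling, where they sit beside the 144 h libraries.

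Other genes of the same processes are given by list, and differences between the lists were not tested. Of all tested genes, 3.58% were called lower at 24 h, 8.08% at 48 h, 12.7% at 96 h, 16.4% at 144 h and 33.9% long-term, and each list is to be read against these shares. Of 41 S phase genes, 4 were lower at 24 h, 15 at 48 h, 31 at 96 h, 39 at 144 h (95.1%) and 41 long-term. Among them CDC6, a licensing factor of replication origins, went from 96.7 ± 10.6 TPM in DMSO to 59.2 ± 5.8 TPM at 96 h and 39.2 ± 3.3 TPM long-term. TYMS, thymidylate synthase, was lower already at 24 h (-0.29 ± 0.06, adjusted p = 0.00518). Of 28 other kinetochore genes, 3, 5, 8, 13 and 24 were lower in the same order of groups (46.4% at 144 h and 85.7% long-term). ZWINT was among those lower at 24 h (-0.26 ± 0.06, adjusted p = 0.00982), at 305 ± 11.3 TPM in DMSO against 254 ± 2.8 TPM at 24 h. SKA3, which couples kinetochores to microtubules, was lower long-term (-1.50 ± 0.10, adjusted p = 3.8e-09).

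Cohesin holds sister chromatids together. Of 12 genes for cohesin, its regulators and chromatid separation, 0, 0, 2, 6 and 11 were lower at 24, 48, 96 and 144 h and long-term (91.7%). PTTG1, encoding securin, was at 259 ± 11.2 TPM in DMSO, 201 ± 10.8 TPM at 144 h and 173 ± 7.2 TPM long-term. Of 8 genes for brakes of CDK1, phosphatases and regulators of phosphatases, 1, 1, 2, 2 and 7 were lower (25% at 144 h and 87.5% long-term). PKMYT1, an inhibitory kinase of CDK1, was lower from 24 h (-0.35 ± 0.10, adjusted p = 0.0377) and at -1.05 ± 0.10 long-term (adjusted p = 2.1e-07). WEE1, the other inhibitory kinase, was at 30.3 ± 2.8 TPM in DMSO, 26.1 ± 2.0 TPM at 144 h and 11.97 ± 1.1 TPM long-term (-1.27 ± 0.09, adjusted p = 3.7e-09). Of the 3 condensin II genes, 1, 0, 1, 2 and 3 were lower.

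Of 18 subunit and regulator genes of the anaphase-promoting complex, none was lower at 24 or 48 h, 1 at 96 h (12.7% of all genes), 3 at 144 h (16.7%; 16.4% of all genes) and 9 long-term (50%; 33.9% of all genes). MAD2L2, an inhibitor of the complex, was higher at 144 h (0.28 ± 0.06, adjusted p = 0.00149), at 84.3 ± 0.29 TPM in DMSO against 102 ± 0.94 TPM at 144 h. Of 12 genes of the DREAM and MuvB complexes, 1, 1, 2, 3 and 6 were lower, and 3 were higher at 144 h. At 144 h this is 25% in each direction, where 16.4% of all genes were lower and 26.6% higher. E2F4, a repressor subunit of DREAM, was lower from 24 h (-0.31 ± 0.07, adjusted p = 0.00837). RBL2, encoding the DREAM pocket protein p130, was higher at 144 h (0.38 ± 0.09, adjusted p = 0.0041), at 31.3 ± 3.4 TPM in DMSO, 40.8 ± 3.8 TPM at 144 h and 31.7 ± 2.4 TPM long-term.

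**Figure D5:**
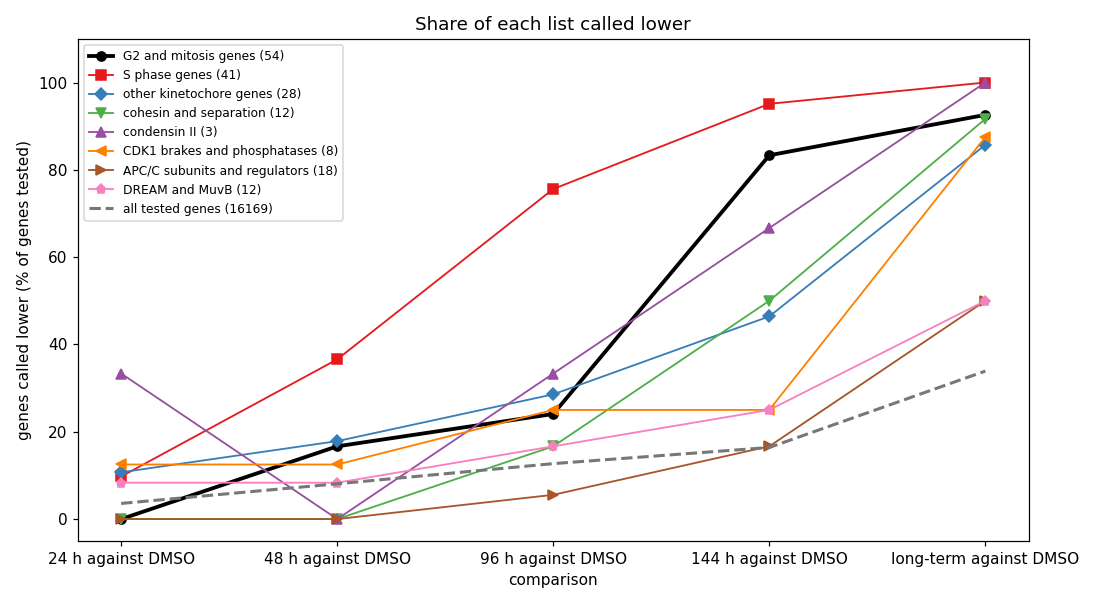
Percent of tested genes called lower (y axis) in each comparison with DMSO (x axis) for the 54 G2 and mitosis genes (black) and 7 other lists, with the number of genes in brackets; the grey dashed line is all 16169 tested genes. The black line runs from 0 of 54 at 24 h to 45 at 144 h and 50 long-term, and the S phase line reaches 31 of 41 at 96 h.

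Pseudogenes or near-identical copies in the table were found for 14 of the 54 genes, 25 in all, and the highest of any copy in any library was 3.50 TPM. How reads shared with such copies were assigned is not given in the sources used here.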

How the data were processed

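RNA sequencing covered 18 libraries, 3 for each of 6 groups, which were assigned by their labels. The labels' protocols describe poly(A) selection, a strand-specific kit and single reads of 50 bp. The authors deposited TPM for each gene. Per the submitters' processing notes, the tools were STAR, RSEM and Partek, and the builds named were hg38 and GRCh38, with no role, order or version given. The authors' own columns of mean TPM for 3 groups and of 2 ratios were not used.

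Genes with at least 1 TPM in at least 3 libraries were kept, and log2(TPM + 1) was tested two-sided with limma 3.58.1 in R 4.3.3, with 1 model of 6 group means and a variance trend. The Benjamini-Hochberg adjustment was made separately for each of 7 comparisons. The test was checked on simulated data with genes changed in 1 group. It recovered 95 of 100 genes with a log2 change of 1 and 70 of 100 with a change of 0.5. In the same simulated comparison 10 unchanged genes were called. Smaller changes were not simulated, so a gene that was not called may still have changed. The alternatives were 10 other settings (pseudocount 0.1, a filter of 5 TPM, no filter, 3 scalings, only the libraries of both groups, no variance trend, the mitochondrial share of TPM added as covariate, the replicate number as a block) and leaving out each of the 18 libraries. Gene positions are from GENCODE release 29. Promoters are from RefSeq (GRCh38.p14). A search of protein sequences was planned and not made. Other steps used Python 3.11.15 with pandas 2.3.3 and matplotlib 3.10.9.

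The 54 genes and all other lists were chosen with earlier results of these data known. Named with a test in each comparison are MKI67, TOP2A, CCNB1, CDK1, PLK1, AURKA, FOXM1 and MYBL2, the 8 called genes with the smallest adjusted p in each direction, and up to 4 called genes of each other list. Not all of the genes so chosen are printed, and other members are given by their levels.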

Additional observations from a re-analysis of the deposited data

Results flagged for a closer look

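Differences between durations of treatment were tested directly. Between 144 h and 24 h, 45 of the 54 genes were lower at 144 h (83.3%; 11.1% of all genes) and none was higher (18.6% of all genes were higher). Between long-term treatment and 144 h, 26 genes were lower (48.1%; 36.8% of all genes) and 2 were higher (9.23% of all genes were higher). With median-of-ratios scaling 12 were lower and 15 higher, and the shares of all genes under that scaling are not given here. The genes higher long-term were CDK1 (log2 fold change 0.79) and UBE2C (0.17). CDK1 was higher under all 10 alternative settings and without each single library, whereas UBE2C was higher under 6 of the 10 settings. Long-term mitochondrial shares of TPM were 22.0% to 29.5%, against 18.3% to 22.5% at 144 h, and their part in the count of 26 lower genes was not tested beyond the scalings given under the processing.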

How the results depend on the processing

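At 144 h and long-term against DMSO, and at 144 h against 24 h, the count of genes called lower stayed within 1.5 times of the reported count under all 10 settings and all 18 leave-outs (41 to 50, 43 to 50 and 41 to 51 under settings; 39 to 46, 48 to 50 and 37 to 47 without single libraries). The smaller counts moved, and the shares of all genes called under the other settings are not given here. At 24 h, called higher were 1, 3, 1 and 1 with median-of-ratios scaling, quantile normalization, mitochondrial genes left out and the mitochondrial covariate (0 to 1 without single libraries), and called lower was 1 with median-of-ratios scaling, without mitochondrial genes and with the covariate. At 48 h, called lower were 18, 15 and 18 with median-of-ratios scaling, only the libraries of both groups and the mitochondrial covariate. At 96 h, called higher were 1 with no filter, 4 with median-of-ratios scaling, 8 with quantile normalization, 5 without mitochondrial genes, 0 with only the libraries of both groups and 6 with the covariate (1 to 4 without single libraries), and called lower were 8 with no filter and 7 with only the libraries of both groups (5 to 13 without single libraries). Long-term against DMSO, 1 gene, CDK1, was higher with each of the 3 scalings and the covariate. Long-term against 144 h, called higher were 1 with no filter, only the libraries of both groups or no variance trend, 15 with median-of-ratios scaling, 10 with quantile normalization, 6 without mitochondrial genes and 5 with the covariate (1 to 2 without single libraries), and called lower were 12, 13 and 10 with median-of-ratios scaling, quantile normalization and the covariate. Reversed values of single genes were CDC20 long-term against DMSO at 0.0257 (quantile), and long-term against 144 h PLK1 at 0.15, CDCA8 at 0.19, MAD2L1 at 0.22, TACC3 at 0.0282, PRC1 at 0.22 and CDCA3 at 0.0172 (median-of-ratios), CDCA8 at 0.19 (quantile), and MAD2L1 at 0.28 and HMMR at 0.00024 (covariate). The causes were not tested. With the replicate number as a block, called lower were 9, 11, 46, 50, 45 and 26 from 48 h to the last comparison, and the 96 h call of CDK1 was lost (adjusted p = 0.053); libraries with the same number did not deviate together (correlations of -0.16 to 0.14, mean 0.0051), so the numbers were not taken as pairs. Depth is unknown from TPM, and changes of genes near 10 TPM are understated by the pseudocount.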
